A study of Gallus gallus with 33 samples.

Results

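The general transcription factors and the TBP-associated factors (TAFs) were examined in the utricle, an organ of balance, whose sensory epithelia were taken from chicks, cultured and wounded with a laser. Members were the identifiers on the array that begin with GTF and a digit, TAF and a digit, or TBP, without the versions that end in mm and a digit. This name rule found 38 members among 1516 identifiers analysed. It used no measured value. The epithelia came from post-hatch White Leghorn chicks and were freed with thermolysin, cut up and cultured. Laser cultures received linear wounds from a pulsed laser microbeam and were left to recover for 4 lengths of time, 30 min being the shortest and 3 hr the longest, with 1 hr and 2 hr between. Control cultures were unlesioned, left the incubator for the same time and were harvested at the same time point. Amplified laser and control RNA was hybridized together on each array, with the dyes swapped between arrays, and the probes were 50-base oligonucleotides designed on human genes. The data held 33 arrays from 9 biological samples: for 30 min 5 arrays of 2 samples, for 1 hr 6 of 2, for 2 hr 8 of 2 and for 3 hr 14 of 3. The study asked which transcription factors respond early to epithelial injury. Amplified RNA of a whole culture was measured, so fewer cells of a type and less RNA per cell cannot be told apart.

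RNA polymerases do not find a promoter alone. For RNA polymerase II, TFIID, made of the TATA-binding protein TBP and its TAFs, marks the start site, TFIIA and TFIIB hold and extend that contact, TFIIF brings the polymerase, and TFIIE recruits TFIIH, which opens the DNA. RNA polymerase III uses TFIIIA, TFIIIB and TFIIIC at its small RNA genes, and RNA polymerase I uses SL1, a TBP complex with its own TAFs. Every transcribing cell needs this machinery, although some subunits, such as TAF4B and TBPL1, are known from particular tissues. The array design used old symbols. In present names TAF2A is TAF1, TAF2B is TAF2, TAF2C1 is TAF4, TAF2C2 is TAF4B, TAF2D is TAF5, TAF2E is TAF6, TAF2F is TAF7, TAF2G is TAF9, and TAF2H is TAF10. TAF2I to TAF2K are TAF11 to TAF13, TAF2N is TAF15, and TAF3B2 is the TFIIIB subunit BRF1. A chicken gene of the same symbol or synonym was found for 35 of the 38 members, all but GTF2F1, GTF3C4 and TAF2E.

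Some samples stand apart, and this bears on all that follows. The mean ratios of the laser-in-Cy3 and laser-in-Cy5 arrays ran against each other over the tested identifiers in 4 of the 9 samples, with r between -0.80 and -0.36. These were 1 hr replicate 2, 2 hr replicate 2, 3 hr replicate 2 and 3 hr replicate 3, and the direction of their ratios is not settled. Nor is their size, since opposite orientations cancel in part when averaged. GTF2E2 in 3 hr replicate 2, for example, had 1.31 for laser RNA in Cy3 and -1.47 in Cy5, with a mean of -0.08. In GTF2F1 in 3 hr replicate 3, by contrast, both lay below 0 (-0.37 and -0.27). Turning a whole sample keeps the size of such a mean. In the other 5 samples r lay between -0.04 (30 min replicate 2) and 0.80 (3 hr replicate 1), so the dyes agreed most closely in 3 hr replicate 1. The ratios of 3 hr replicate 1 had by far the widest spread (SD 1.03 over the tested identifiers, against 0.16 to 0.40 in the other samples), and 67.1% of them lay below 0. A 3 hr mean without this sample rests on 3 hr replicates 2 and 3 alone, whose orientations are opposed, so it is not the sounder value. Median spot intensity per array ran between 178 and 2411 in Cy3 and between 90.2 and 1438 in Cy5. Of the hair cell markers on the array 1 of 6 passed the signal filter described next (POU4F1), of the stromal markers 0 of 5, of the neuronal markers 3 of 4 and of the blood markers 1 of 5 (SPI1). Of the supporting cell and sensory patch markers SOX2 and SHH passed it, whereas GATA3, PAX2, PROX1 and EYA4 did not. ATOH1 and POU4F3, which define hair cells, did not pass it, and neither did 3 further hair cell markers.

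Members of the basal machinery did not exceed the signal level more often than other transcription factor probes. A probe was tested for change only if at least 50% of the arrays gave it a spot intensity above 1000 in one channel or both. This held for 9 of the 38 members, or 23.7%, beside 24.5% of all 1516 identifiers. At a level of 800 the shares were 44.7% of members (17) and 48.3% of all, and at 1200 they were 13.2% (5) and 14.3%. When both channels had to exceed 1000, 1 member (TAF2H) and 3.10% of all identifiers passed. Against the local background plus 2 SD the order turned round, with 28 members (73.7%) and 67.0% of all. Array by array, the share of members above 1000 was higher than that of all identifiers on 13 of 33 arrays. Within single time points the share of members was above that of all identifiers at 30 min (19 of 38 members, beside 33.6% of all) and 2 hr (81.6% beside 72.4%). It was below that of all at 1 hr (23.7% beside 30.1%) and 3 hr (28.9% beside 37.5%). These counts describe human probes on chick RNA, and the level of one gene cannot be set against that of another. TAF3B2mm4, an identifier left out as ending in mm and a digit and handled as a control, exceeded 1000 on 18 of 33 arrays. It would have passed the filter, with as many arrays as GTF2A1, TAF2B and TAF2C2, whereas TAF3B2mm1 to TAF3B2mm3 would not. Passing the level, for members and cell type markers alike, therefore does not by itself show that a gene was expressed.

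**Figure D1:**
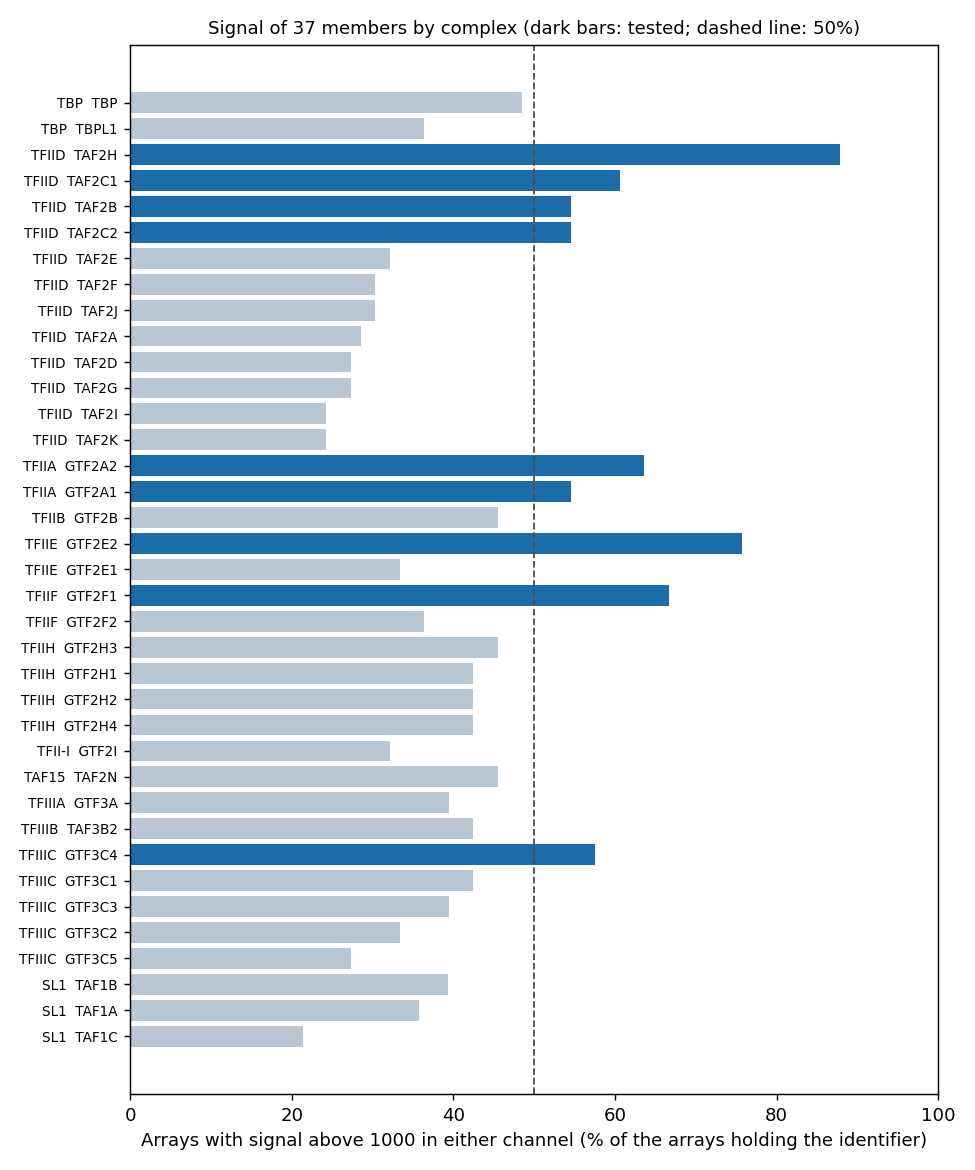
Share of arrays (% of the arrays that held the identifier) on which each of 37 of the 38 members had a spot intensity above 1000 in either channel, grouped by complex. Dark bars mark the 9 members that passed the filter and were tested, the dashed line marks 50%, TAF2H reached 29 of 33 arrays and TBP fell just short at 16 of 33.

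The 9 tested members came from 5 complexes. Both TFIIA subunits passed (GTF2A1 on 18 and GTF2A2 on 21 of 33 arrays), as did 1 of 2 TFIIE subunits (GTF2E2, 25 arrays), 1 of 2 TFIIF subunits (GTF2F1, 22 arrays) and 1 of 5 TFIIIC subunits (GTF3C4, 19 arrays). Of the 12 TFIID TAFs 4 passed: TAF2H on 29 arrays, TAF2C1 on 20, and TAF2B and TAF2C2 on 18 each. None of the 4 TFIIH subunits reached the level on enough arrays, although they lay close together at 14 to 15 arrays. TBP exceeded it on 16 arrays, TFIIB (GTF2B) on 15, TBPL1 on 12, and the SL1 subunits on 6 to 11 of the 28 arrays that held them. On 5 arrays of an earlier print 6 members were missing (GTF2I, TAF1A, TAF1B, TAF1C, TAF2A and TAF2E). All 9 tested members were present on all 33 arrays.

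No member passed the test at any time point. In limma, with p-values adjusted over the 371 identifiers tested by the Benjamini-Hochberg method, 0 of 9 members were called at each time point, as were 0 of the 371 identifiers (0%). An unadjusted p under 0.05 was found for 1 member at 30 min (GTF2E2, beside 0.809% of all tested) and 1 at 3 hr (GTF2F1, beside 1.89%). It was found for 0 members at 1 hr (1.08% of all) and 0 at 2 hr (1.62%). The t-test of the study's methods, run on samples and on arrays, called 0 members after the same adjustment. The study itself used another rule and describes no adjustment. It took genes over 1.2-fold with a t-test p under 0.05, after a filter for a shared trend over hybridizations. At 30 min 3 of 9 members were more than 1.2-fold from control (22.4% of all tested), 1 of them higher (6.2%) and 2 lower (16.2%). At 1 hr it was 1 member (18.1%), which was higher (9.16%), and 0 were lower (8.89%). At 2 hr 3 members (17.8%) were past that fold, all 3 higher (9.16%) and 0 lower (8.63%). At 3 hr there were 4 (34.8%), all 4 lower (32.9%) and 0 higher (1.89%). The median log2 ratio over the members was -0.09 at 30 min (-0.04 over all tested) and -0.14 at 3 hr (-0.06 over all), and it was 0.06 at 1 hr and at 2 hr (0.00 over all at both). The labels call the samples biological replicates and do not say which animals each held, so p-values measure the spread between these samples.

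Direction was shared by both samples at 2 hr for 7 of the 9 members (65.5% of all tested), but for 2 (34.5%) when the samples with opposed orientations were turned. At 1 hr and 2 hr 1 of the 2 samples was turned, so shared and unshared directions change places. The number of members that share a direction after the turn therefore follows from the number as coded and is no second outcome. As coded, both 30 min samples were lower for 3 members (GTF2E2, TAF2C1, TAF2H; 16.7% of all tested) and higher for 2 (TAF2B, TAF2C2; 14.8%). At 1 hr both were lower for 2 members (TAF2B, TAF2C2; 24.3%) and higher for 2 (GTF2F1, TAF2C1; 27.2%). At 2 hr 2 members were lower (TAF2B, TAF2C2; 34%) and 5 higher (GTF2A1, GTF2E2, GTF2F1, GTF3C4, TAF2C1; 31.5%). All 3 samples at 3 hr were lower for 1 member (GTF2F1; 9.7%) and higher for 0 (10.8%). With the opposed samples turned, 4 members were lower (GTF2A1, GTF2A2, GTF2E2, GTF3C4; 15.4%) and 1 higher (TAF2H; 33.2%) in both 1 hr samples. At 2 hr it was then TAF2H that was lower (11.6%) and GTF2A2 that was higher (22.9%), and at 3 hr 1 member was lower (GTF2A1; 27.2%) and 0 were higher (6.2%). The 30 min samples were not among those turned, although the dye orientations of 30 min replicate 2 showed no agreement (r = -0.04).

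**Figure D2:**
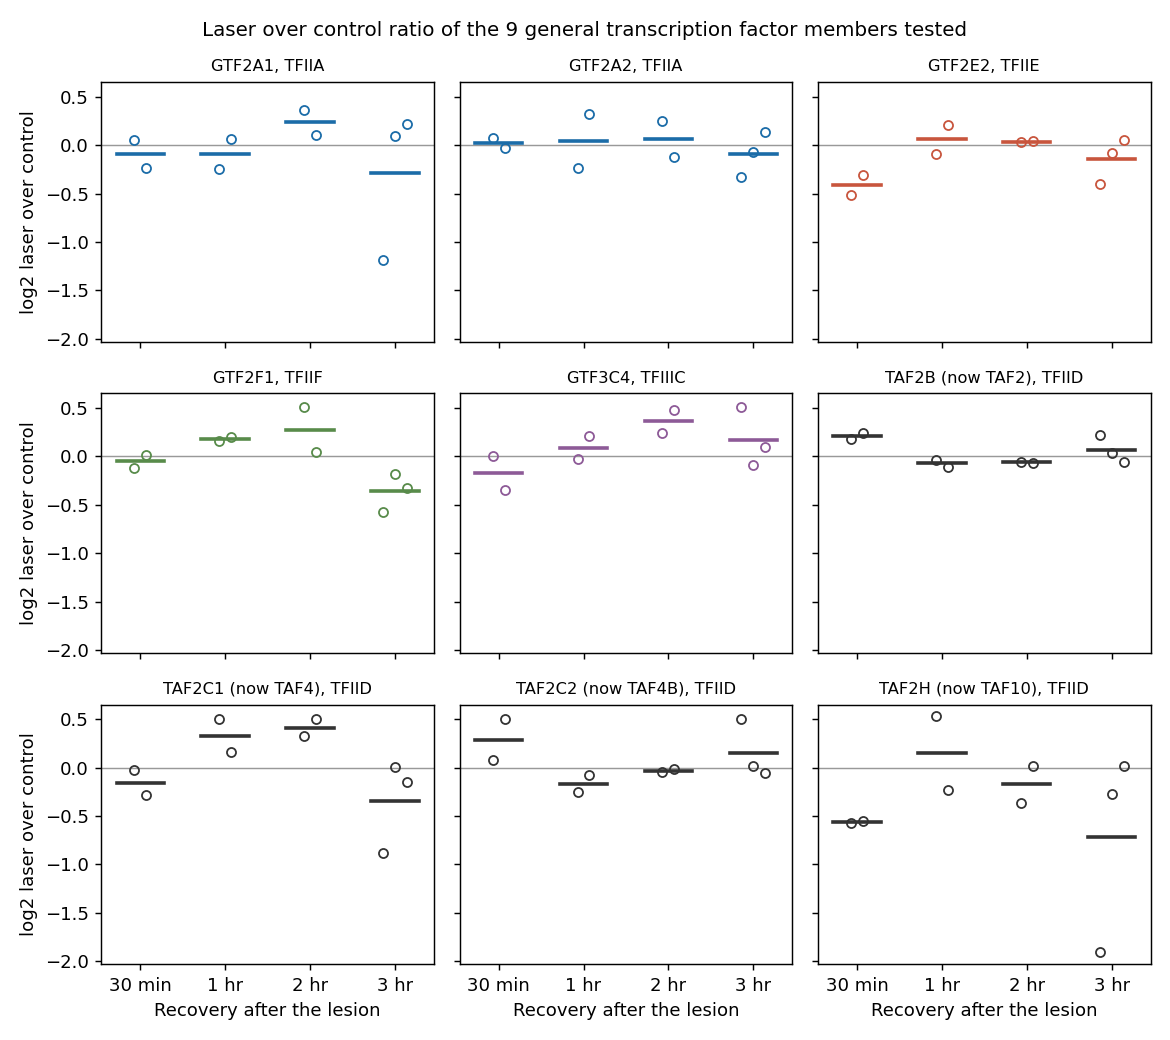
log2 ratio of laser over control for the 9 tested members at the 4 recovery times, with 1 circle per biological sample and a line at the mean of each time point. GTF2E2 and TAF2H lie below 0 in both 30 min samples, GTF2F1 lies below 0 in all 3 samples at 3 hr, and the single low points of GTF2A1, TAF2C1 and TAF2H at 3 hr come from replicate 1.

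TAF2H, now TAF10, was the member with the most arrays above the signal level. TAF10 is a histone-fold TAF that TFIID shares with the SAGA coactivator. Its spot intensity had a median over the 33 arrays of 2330 in the laser channel (range 265 to 51420) and 2220 in the control channel (range 217 to 30842). At 30 min its log2 ratio was -0.57 and -0.55 in the 2 samples, and all 5 arrays lay below 0 (between -1.04 and -0.10). Both dye orientations gave nearly the same mean there, -0.57 and -0.57 in replicate 1 and -0.54 and -0.57 in replicate 2. In replicate 1, however, the value for laser RNA in Cy3 averaged 2 arrays that differed widely, at -1.04 and -0.10. The 30 min mean was -0.56 (SE 0.43), and it did not pass the test (limma p = 0.231, adjusted p = 0.990). At 1 hr the samples were 0.53 and -0.23, and at 2 hr they were -0.37 and 0.02, so as coded neither time point held a shared direction. At 3 hr they were -1.91, -0.27 and 0.02. The value of replicate 1 was below 0 on all 6 of its arrays (-3.16 to -0.99) and in both dye orientations (-1.83 and -1.99). The 3 hr mean of -0.72 (SE 0.35, adjusted p = 0.656) became -0.13 without 3 hr replicate 1.

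The large standard error of TAF2H at 30 min came from a spread shared over all time points, to which 3 hr replicate 1 contributed. Without that sample the 30 min mean was the same, -0.56, with an SE of 0.19 and an unadjusted limma p of 0.0180 (adjusted p = 0.798). GTF2E2 at 30 min (p = 0.0176) and both GTF3C4 and TAF2C1 at 2 hr (p = 0.0424 and p = 0.0222) were then also under 0.05, where 5.12% of all tested identifiers were at 30 min and 4.58% at 2 hr. No member had an adjusted p under 0.05 in that fit either.

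GTF2E2, the beta subunit of TFIIE, had the smallest unadjusted p at 30 min. Its log2 ratio was -0.51 and -0.31 in the 2 samples, and 5 of 5 arrays lay below 0, between -0.89 and -0.03. In 30 min replicate 2 the value rested on 1 array, with -0.59 for laser RNA in Cy5 beside -0.03 for laser RNA in Cy3. The 30 min mean was -0.41 (SE 0.16, limma p = 0.0377, adjusted p = 0.990), a laser level 0.753 times that of control. In the later samples the values were -0.09 and 0.21 (1 hr), 0.03 and 0.04 (2 hr), and -0.40, -0.08 and 0.06 (3 hr), with no shared direction at 1 hr or 3 hr as coded. The 1 hr replicate 2 value averaged dye orientations of opposite sign, with -0.78 for laser RNA in Cy5. With the scan session as a block the 30 min ratio was -0.52 (adjusted p = 0.949), and it lay below 0 in each of the 3 scan sessions. The partner subunit GTF2E1 was below the signal filter. Its unfiltered 30 min mean was 0.11, with samples at 0.01 and 0.20.

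GTF2F1, the large subunit of TFIIF, which carries the polymerase to the promoter, lay below 0 in 3 of 3 samples at 3 hr. The values were -0.58, -0.18 and -0.32, with 9 of 14 arrays below 0. In replicate 2 the value averaged orientations of opposite sign, 0.35 for laser RNA in Cy3 and -0.71 in Cy5. Both orientations lay below 0 in replicate 1 (-0.40 and -0.75) and in replicate 3 (-0.37 and -0.27). The mean was -0.36 (SE 0.14, limma p = 0.0313, adjusted p = 0.656). At 2 hr the samples were 0.51 and 0.04, at 1 hr 0.15 and 0.20, and at 30 min -0.12 and 0.01. As coded, the samples of 1 hr and 2 hr did not overlap with those of 3 hr. Samples of 2 time points wholly on opposite sides of 0, as here, were found in 5 of 9 tested members and 27.0% of all tested. GTF2F1 also had the smallest p of the members in the F test over the 4 time points (p = 0.0698, adjusted p = 0.998), in which 0 members and 0% of all tested were called and 0 members (0.27% of all) had an unadjusted p under 0.05. Without 3 hr replicate 1 the 3 hr mean was -0.25 (p = 0.130). Replicates 2 and 3 at 3 hr are among the samples with opposed dye orientations. With the opposed samples turned the 3 hr mean was -0.024 (SE 0.20, limma p = 0.909). Then 1 of 3 samples lay below 0, and the values overlapped with those of 1 hr and 2 hr. Both follow from the turn itself, after which each of these time points holds both signs. Of the 8 scan sessions with 3 hr arrays 6 gave a mean below 0. With the scan session as a block the ratio was -0.37 (adjusted p = 0.177).

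**Figure D3:**
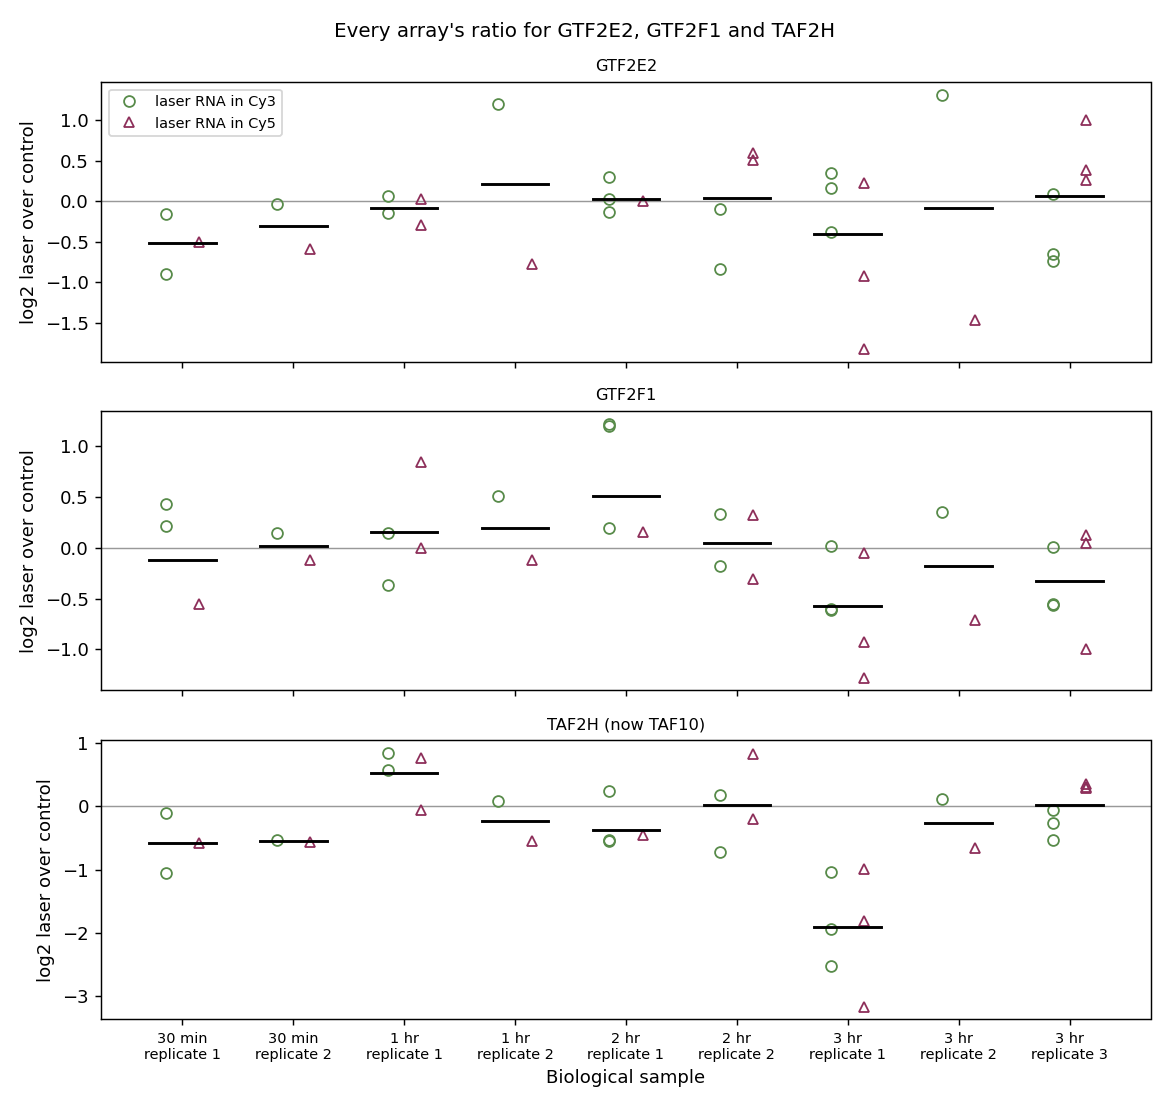
log2 ratio of laser over control on every array for GTF2E2, GTF2F1 and TAF2H, by biological sample, with circles for laser RNA in Cy3, triangles for laser RNA in Cy5 and a line at the sample's mean of both orientations. TAF2H sits below 0 in both orientations at 30 min and in 3 hr replicate 1, whereas TAF2H and GTF2E2 both have opposite signs in the orientations of 1 hr replicate 2, 2 hr replicate 2 and 3 hr replicates 2 and 3.

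The paralogs TAF4 and TAF4B, which take the same place in TFIID, gave ratios of opposite sign in most samples. TAF2C1 (TAF4) had -0.02 and -0.29 (30 min), 0.50 and 0.16 (1 hr), 0.32 and 0.50 (2 hr), and -0.88, 0.01 and -0.15 (3 hr). TAF2C2 (TAF4B) had 0.08 and 0.50 (30 min), -0.26 and -0.08 (1 hr), -0.05 and -0.02 (2 hr), and 0.50, 0.01 and -0.06 (3 hr). They had opposite signs in 7 of 9 samples and on 22 of 33 arrays. Several of the TAF2C2 values lay near 0, and its dye orientations had the same sign in 3 of 9 samples (those of TAF2C1 in 7). This pair was singled out after its values were seen, and a pair that opposed as often was not rare: 8 of the 36 pairs of tested members did, beside 8.66% of all pairs of tested identifiers. Turning the direction of a sample turns both signs, so it cannot alter this count and is no check on it.

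Neither TAF4 paralog passed the test at a time point. The largest mean of TAF2C1 was 0.41 (SE 0.23, adjusted p = 0.995) at 2 hr, with 6 of 8 arrays above 0. Its 1 hr mean was 0.33 (SE 0.23, adjusted p = 0.991), with 6 of 6 arrays above 0. Its 3 hr mean was -0.34 (SE 0.19, adjusted p = 0.656), with 11 of 14 arrays below 0, and -0.070 without 3 hr replicate 1. Both positive means changed sign under an alternative: the 1 hr mean was -0.026 with the scan session as a block, and the 2 hr mean was -0.087 when the samples with opposed orientations were turned, where the 1 hr mean was 0.17. TAF2C2 had its largest mean at 30 min, 0.29 (SE 0.18, adjusted p = 0.990), with 4 of 5 arrays above 0. In 30 min replicate 2 that rested on 1 array, with 1.02 for laser RNA in Cy5 beside -0.03 for laser RNA in Cy3.

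TAF2B, now TAF2, the TAF that contacts the initiator, stayed within 1.2-fold of control at every time point. Its means in the order of the times were 0.21, -0.07, -0.06 and 0.07. All 5 arrays at 30 min lay above 0, and its ratio ran between -0.11 and 0.24 over the 9 samples. The 8 TFIID TAFs below the filter included TAF2A (TAF1), the largest subunit. Its unfiltered 30 min mean of 0.42 had an unadjusted p of 0.0481 (adjusted p = 0.963), but its samples were -0.03 and 0.87 and thus differed in sign.

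GTF3C4, a TFIIIC subunit with histone acetyltransferase activity in human cells, was above 0 on 8 of 8 arrays at 2 hr. Its 2 hr samples were 0.24 and 0.48, with arrays between 0.02 and 1.02, and the mean was 0.36 (SE 0.19, limma p = 0.0917, adjusted p = 0.995). At 30 min the samples were 0.00 and -0.35, at 1 hr -0.03 and 0.21, and at 3 hr 0.51, -0.09 and 0.10. The 2 hr ratio lay above 0 in each of 6 scan sessions and was 0.50 (adjusted p = 0.195) with the session as a block. It was -0.12 when the samples with opposed orientations were turned, and -0.016 in the centred values of the series table. After the median of the spots printed nearby was subtracted it was 0.23, within 1.2-fold of control. GTF3C4 also had the smallest p for 3 hr minus 30 min (0.35, SE 0.24, p = 0.192, adjusted p = 0.948), a contrast in which 0 members and 0% of all tested were called, and 0 members had an unadjusted p under 0.05 (0.539% of all).

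The TFIIA subunits, which steady TBP on DNA, did not share a pattern. GTF2A1 had means of -0.09, -0.09, 0.24 and -0.29 in the order of the times. The 3 hr value came from replicate 1 at -1.18, beside 0.10 and 0.22 in replicates 2 and 3, and the mean was 0.16 without 3 hr replicate 1. GTF2A2 had means of 0.02, 0.05, 0.06 and -0.09 over the same times, with samples between -0.33 and 0.33. The sole alternative in which members passed the adjusted test kept the samples with unopposed orientations alone, which left 3 hr replicate 1 as the single 3 hr sample. It called GTF2A1 (-1.18, limma adjusted p = 0.0262) and TAF2H (-1.91, limma adjusted p = 0.000127), together with 103 of all 371 identifiers at 3 hr, and its spread was taken from the other time points.

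The remaining 29 members were dim, and their ratios are given as a description from a fit on all 1516 identifiers. TBP, the subunit all 3 polymerases share, had unfiltered means of -0.05, 0.07, -0.16 and 0.04 in the order of the times, with samples between -0.40 and 0.22. Its smallest unadjusted p was 0.302, at 2 hr. TBPL1, a TBP relative that acts in germ cells in mouse, had means of -0.08, -0.06, 0.14 and -0.05. TFIIB (GTF2B), which sets the start site, had 0.08, -0.06, 0.22 and 0.02. The means of all 29 dim members reached 0.42 at the highest at 30 min and ran between -0.20 and 0.14 at 1 hr. They ran between -0.34 and 0.41 at 2 hr and between -0.12 and 0.12 at 3 hr. At 3 hr, then, none of the dim members was past 1.2-fold. No member had an adjusted p under 0.05 in this fit.

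At 2 hr the members split by name, as far as the direction of 2 hr replicate 2 can be taken as coded. Of the 18 GTF members 16 lay above 0 in the unfiltered fit (median 0.23), and of the 20 TAF and TBP members 17 lay below 0 (median -0.15), beside 50.1% above and 49.9% below among all other identifiers. The 4 TFIIH subunits had means of 0.22 to 0.36, 4 of 5 TFIIIC subunits had means above 0 (all but GTF3C5 at -0.12), and 11 of 12 TFIID TAFs and all 3 SL1 subunits lay below 0. Unadjusted p-values under 0.05 were found for 7 of 38 members, beside 5.34% of all 1516 identifiers. These were GTF2E1 (0.25), GTF2H1 (0.31), GTF2H3 (0.27), GTF3C2 (0.41), GTF3C3 (0.41), TAF2E (-0.34) and TAF2N (-0.29). All 7 were dim members that had not passed the signal filter. The smallest adjusted p among members was 0.887. The GTF members above 0 numbered 12 of 18 at 30 min (51.4% of the other identifiers), 8 at 1 hr (47.6%) and 9 at 3 hr (54.3%). Of the 20 TAF and TBP members 14 lay below 0 at 30 min (48.6% of the others), 15 at 1 hr (52.4%) and 8 at 3 hr (45.7%). A majority of TAF and TBP members below 0 was thus not particular to 2 hr.

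The split was seen in the 2 hr mean, of which 2 hr replicate 1 is a part, so that sample is no separate check. In 2 hr replicate 1 on its own, whose dye orientations were not opposed, the split was present. There 16 of 18 GTF members lay above 0 (median 0.18) and 16 of 20 TAF and TBP members below 0 (median -0.10), with 15 GTF members above 0 for laser RNA in Cy3 and 13 for laser RNA in Cy5. In 2 hr replicate 2 the same counts were 16 and 16 (medians 0.31 and -0.12), but 7 GTF members lay above 0 for laser RNA in Cy3 (median -0.17) and 16 for laser RNA in Cy5 (median 0.77). When that sample was turned, 4 of 18 GTF members had a 2 hr mean above 0 (median -0.08) and 9 of 20 TAF and TBP members one below 0 (median 0.0074). Among all other identifiers 52.9% lay above 0 and 47.1% below. Then 0 members had an unadjusted p under 0.05 at 2 hr, beside 0.528% of all. The GTF members above 0 numbered 1 at 1 hr (51.4% of the other identifiers) and 6 at 3 hr (48.5%) with the opposed samples turned. At 1 hr, then, 17 of 18 GTF members lay below 0, so with this turn the GTF members were one-sided at 1 hr. Of the 20 TAF and TBP members 9 lay below 0 at 1 hr (48.6% of the others) and 8 at 3 hr (51.5%).

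The place on the slide moved with this split. The probes were printed largely in the order of their names: 16 of the 18 GTF probes stood in rows 6 and 7 of a quadrant and 12 of the TAF and TBP probes in row 16. The median log2 ratio at 2 hr of the other spots printed within 2 rows of a member had a median of 0.11 around the GTF members and -0.10 around the TAF and TBP members, and it was above 0 for 16 of 18 and below 0 for 15 of 20. Members of the same quadrant and row share 1 such value, so these counts rest on a few neighbourhoods and not on separate observations. After each member's nearby median was subtracted, 15 of 18 GTF members lay above 0 (median 0.14) and 13 of 20 TAF and TBP members lay below 0 (median -0.05). In the fit of all 1516 identifiers, members with an unadjusted p under 0.05 at 2 hr then numbered 1 (GTF3C3), beside 4.16% of all. At 30 min they were GTF2E2 and TAF2A (2.9% of all), at 3 hr GTF2F1 and TAF2C1 (2.18%), and at 1 hr there were 0 (1.98%). In that fit GTF2E2 at 30 min had a ratio of -0.48 (limma p = 0.00167, adjusted p = 0.995), TAF2H at 30 min had -0.61 (p = 0.201) and GTF2F1 at 3 hr had -0.34 (p = 0.0279). Fitted on the 371 identifiers past the signal filter, GTF2F1 at 3 hr had a p of 0.0503. Of the tested members past 1.2-fold at 2 hr, GTF3C4 had 0.23 after the subtraction and GTF2F1 0.14, both within 1.2-fold, and TAF2C1 had 0.34. How far position accounts for the split was not tested. Nearby spots were examined after the split had been seen.

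**Figure D4:**
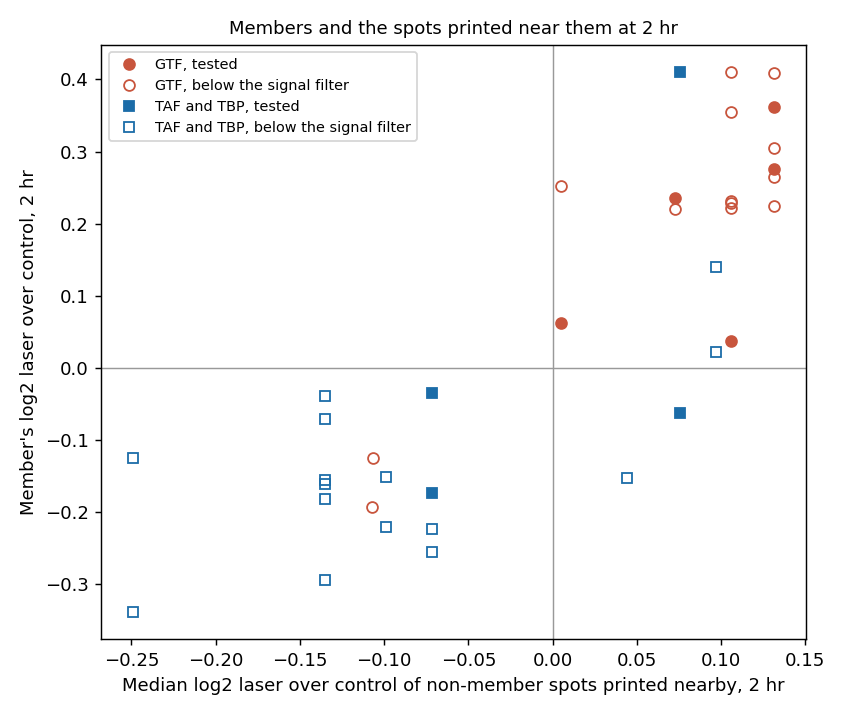
log2 ratio of laser over control at 2 hr for 37 of the 38 members (vertical axis) against the median log2 ratio of the non-member spots printed within 2 rows of them (horizontal axis), with circles for GTF members, squares for TAF and TBP members and filled symbols for the tested ones. The 16 GTF members above 0 stand among spots whose median is also above 0, and most TAF members stand among spots whose median is below 0.

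Other genes of the transcription machinery on the array gave no call either. From a list of 46 identifiers (Mediator subunits, the kinase and helicases of TFIIH, elongation factors, TBP regulators, SAGA and PCAF, SNAPc, TFIIIB and RNA polymerase I factors) 10 passed the signal filter, or 21.7%. In limma 0 of the 10 were called at any time point, and 0 had an unadjusted p under 0.05. Of their 40 ratios 7 were past 1.2-fold, where 22.4%, 18.1%, 17.8% and 34.8% of all tested identifiers were in the order of the times. The medians over the 10 were -0.06, 0.04, 0.13 and -0.09 in the order of the times. The plan was to name such genes only with an unadjusted p under 0.05, so TCEB1, SNAPC4 and CDK7 were picked after their values were seen. TCEB1, the elongin C subunit, had the mean farthest from 0, -1.41 at 3 hr (SE 0.79, adjusted p = 0.656), although it was below 0 in 1 of 3 samples. SNAPC4, a subunit of SNAPc, had the smallest unadjusted p (0.0509), with -0.33 at 1 hr (SE 0.14, adjusted p = 0.991) and both samples below 0. CDK7, the kinase of TFIIH that phosphorylates the polymerase tail, had a 3 hr mean of -0.69 (SE 0.37, adjusted p = 0.656), below 0 in 2 of 3 samples.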

How the data were processed

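Values came from 66 channel files of 33 arrays. The authors measured spot and local background intensity in ImaGene 4.1 and, per the file headers, deposited it on a linear scale without subtraction or normalization. The deposited series table holds the log2 ratio of the raw channels, neither normalized nor centred (largest difference from the channel files 6.22e-15), and served as an alternative after centring. Its scale is known, and its direction follows the dye given in the sample titles. The direction of the samples with opposed orientations is therefore no more settled there than in the channel files. The authors' own lowess-normalized values, their choice of hybridizations and their t-test results were not used here.

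The header gave each channel's dye. On 2 arrays file and header disagreed, and the header was followed. Background was corrected with normexp (offset 50), and ratios were normalized by loess within each array in which 18 control identifiers had weight 0. Ratios were turned to laser over control, spots were averaged, and both dye orientations of a sample were averaged equally. Arrays of 1 sample are technical repeats and count as 1 replicate. An identifier was tested when at least 50% of the 33 arrays gave it a mean signal above 1000 in one channel or both, absence from the 5 earlier-print arrays counting as not above. The fit used limma 3.58.1 under R 4.3.3 (statmod 1.5.0), took a mean for each time point from the 9 samples and had 5 residual degrees of freedom, and p-values were adjusted over the 371 identifiers tested. The number of arrays limits the precision. The procedure was also run on simulated spots with known ratios. The outcome of that run is not reported here. It therefore does not show what size of change the test could find in these samples, some of which have opposed orientations.

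Members, complexes and gene lists were chosen with earlier results of these data known. Values in every sample were given for tested members with an unadjusted p under 0.05, for those over 1.2-fold with 1 sign in all samples, for the smallest F p and for TBP, and the other tested members by range. Deviations of same-numbered replicates from their time point mean had correlations of -0.37 to 0.25, and no pairing was assumed. This check cannot exclude pairing. Where a time point has 2 samples their deviations mirror each other, and the direction of some samples is not settled. The 34 alternatives covered background, normalization, filter, channel reading, dye orientation, each replicate left out, the replicate block and the methods' t-test. Of these, scan session, nearby spots and the share over the arrays holding an identifier were added after seeing the data, as were the counts of shared direction with the opposed samples turned. Chicken names are those of GRCg7b. No sequence was printed. The own values of 1 member and 1 cell type marker are not reported here.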

Additional observations from a re-analysis of the deposited data

Results flagged for a closer look

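In 5 of the 9 tested members all samples of one time point lay on one side of 0 and all samples of another on the other side, which held for 27.0% of all tested identifiers (55.6% of members). This rests on the direction of the samples with opposed orientations. With those turned it held for 2 members (GTF2A2 and TAF2H), or 22.2%, beside 27.0% of all. That none of the 5 was among them was fixed in advance. Each of their differences involves 1 hr or 2 hr, where 1 of the 2 samples was turned and the shared sign is lost. GTF2F1 was -0.53 at 3 hr minus 1 hr and -0.64 at 3 hr minus 2 hr. TAF2C1 was 0.49 at 1 hr minus 30 min and 0.57 at 2 hr minus 30 min, and TAF2C2 was -0.46 and -0.32 over the same contrasts. TAF2B was -0.28 at 1 hr minus 30 min and -0.27 at 2 hr minus 30 min, and GTF2E2 was 0.45 at 2 hr minus 30 min. Each of these 9 differences was tested in limma as a contrast between the time points, and the smallest p was 0.0197 (GTF2F1 at 3 hr minus 2 hr, adjusted p = 0.948), so none passed.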

How the results depend on the processing

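The 9 members gave 0 adjusted calls at 30 min, 1 hr and 2 hr under all alternatives, and at 3 hr under all but one: the samples with unopposed orientations alone called 2 members at 3 hr and 1 by the F test (TAF2H, beside 16.2% of all), with a 3 hr median of -0.40 over the members. Over all 371 identifiers that setting called 103 at 3 hr. With each time point fitted alone 2 were called at 1 hr and 12 at 2 hr, with the scan session as a block 1 at 2 hr and 7 at 3 hr, and without 3 hr replicate 1 there was 1 at 30 min, none of them a member. Every other alternative called 0 identifiers at each time point. Members above the signal level numbered 17 at 800, 5 at 1200, 1 with both channels above 1000 and 28 against the local background plus 2 SD. With both channels above 1000, where TAF2H alone remained, the median was -0.56 at 30 min, -0.17 at 2 hr and -0.72 at 3 hr, and with laser RNA in Cy5 alone it was -0.36 at 3 hr. Leaving out 1 replicate moved the median at 30 min between -0.24 and 0.00 and at 3 hr between -0.24 and -0.01. GTF3C4 at 2 hr reversed to -0.016 in the series table, to -0.051 with the suffix 5 arrays of the opposed samples unturned and to -0.12 with those samples turned, and TAF2C1 at 2 hr to -0.077 and -0.087 in the last 2 settings. TAF2C1 at 1 hr was -0.026 with the scan session as a block. GTF2E2 and TAF2H at 30 min and GTF2F1 at 3 hr kept their sign in 33, 34 and 33 of as many alternatives, but GTF2F1 shrank to -0.024 with the opposed samples turned. Many of these alternatives could not move the means in question. Leaving out samples of other time points or changing the signal level keeps the sample ratios, and the 30 min samples were not among those turned. The counts of kept signs are therefore no measure of robustness. With the replicate block, 0 members had an unadjusted p under 0.05 and 0 were called (GTF2E2 at 30 min -0.31, GTF2F1 at 3 hr -0.36). The pairing check cannot decide whether this block or the main fit is the better one. The cause of these shifts was not tested. Dim probes and the number of samples, 9, limit the precision.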

Other observations

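The array also carries 4 identifiers that join the name TAF3B2 (BRF1) with mm and a digit, whose design is not explained in the sources used here. TAF3B2 exceeded a spot intensity of 1000 on 14 of 33 arrays, and the 4 versions on 15, 16, 13 and 18 of 33. The last of these would have passed the signal filter, although the versions were handled as control identifiers. Duplicate spots of a tested member differed by a median of 0.12 on the log2 scale, and those of all tested identifiers by 0.13. Among the 9 tested members the dye orientations of a sample had the same sign in 7 of 9 samples for TAF2C1, 6 for GTF3C4 and 5 for TAF2H, and in 3 for GTF2A2, GTF2E2 and TAF2C2.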
